A study of Mus musculus with 6 samples.

Results

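The genes described here form the Myc, Max and Mxd network of transcription factors, measured in mouse pre-pro-B cells that lacked Ebf1 and were then given it back. The members are the 9 genes Myc, Mycn, Mycl1, Max, Mxd1, Mxi1, Mxd3, Mxd4 and Mnt, and their probes were all probes of the array whose gene name equals one of these symbols. This gave 16 probes on 25 spots, of 41174 probes and 27827 names on the array. A Myc probe lay on 10 spots and each of the others on 1 spot.

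Each of the 6 samples was total RNA of pre-pro-B cells of genotype Ebf1 -/-. Their cultures had a layer of OP9 stroma and 10 ng/ml of each of 3 cytokines, which were Flt3 ligand, interleukin 7 and stem cell factor. The Ebf1 group was infected with the retrovirus pMYs-Ebf1-IRES-EGFP, whose insert the sample titles call Ebf1beta (n = 3 arrays), and the control group with pMYs-IRES-EGFP, which carries EGFP alone (n = 3 arrays). Cells carrying EGFP were sorted 24 h later, and both groups share the Ebf1 deletion, the feeder cells and the viral vector. The labels do not say whether replicates came from separate cultures or mice, so the p-values measure only the spread between these samples, which may be technical.

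Proteins of the network share a basic helix-loop-helix leucine zipper and bind DNA as dimers, for which Max is the common partner. Myc, N-Myc and L-Myc, encoded by Myc, Mycn and Mycl1, activate genes for growth, ribosome production and nucleotide synthesis when paired with Max. The proteins encoded by Mxd1, Mxi1, Mxd3, Mxd4 and Mnt compete for Max and for the same E-box sites, and recruit Sin3 and histone deacetylases to repress transcription. In lymphocyte precursors Myc and N-Myc are known to support proliferation under interleukin 7, and Mxd proteins are known to rise as blood cells leave the cell cycle and mature.

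The signals were read by 60-base probes, and the probe sequences that carry the results are shown because Mycn and Myc are related genes that gave different readings. The longest run of bases that any 2 probes of different network genes shared was 10 bases, over 111 pairs, and for pairs of a Myc and a Mycn probe it was 5 to 8 bases. In the first 2 probes below, capitals mark the 8 bases that they share, and the Mxd4 probe has no capitals. The other probes are given by their first 30 bases.
Mycn A_51_P497332 (chr12:12944312-12944371, mm9): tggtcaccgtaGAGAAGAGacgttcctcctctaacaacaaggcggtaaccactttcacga
Myc A_52_P278549 (chr15:61820925-61820984, mm9): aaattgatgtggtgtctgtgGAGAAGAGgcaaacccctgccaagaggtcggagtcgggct
Mxd4 A_51_P148865 (chr5:34520307-34520366, mm9): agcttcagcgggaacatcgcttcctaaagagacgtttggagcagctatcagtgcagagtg
Mycn A_52_P536494 (chr12:12943193-12943252, mm9): tgtactaattcctacacggcctgtatactt
Myc A_51_P102096 (chr15:61821516-61821576, mm9): gttccttctgacagaactgatgcgctggaa
Mxd1 A_51_P490795 (chr6:86597190-86597249, mm9): cgcgggtgaagaatgagaagcgcgtttcca
Mxd1 A_51_P388607 (chr6:86600751-86600810, mm9): ccttgcacgcaaacctcatgtaccaccttg
Mxd4 A_52_P230650 (chr5:34516836-34516895, mm9): agcttgcctttctaggcagatggagttgtg

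Signals are given relative to the 75th percentile of the same array, which was 316.4 to 364 intensity units on the Ebf1 arrays and 239.9 to 365.7 on the control arrays. The share of probes read well above background was 50.34% to 59.78% on the Ebf1 arrays, against 46.33% to 50.22% on the control arrays. The only Ebf1 probe above background averaged 0.29 ± 0.09 in Ebf1 cells and 0.44 ± 0.39 in control cells (log2 signal ± SD, n = 3 each), and whether it reads the viral transcript is not known here. The 6 tested markers of the B lineage, out of 8 listed, rose in Ebf1 cells (Cd79a and Pax5 were too dim to be tested). Their summed signal was 520.7 to 580.3 times the 75th percentile in Ebf1 cells and 2.01 to 2.261 times in control cells, and Blnk was well above background on 0 of 3 control arrays. The 6 markers of pre-pro-B cells were all tested, and 4 of them, Kit, Il7r, Cd93 and Spn, fell, beside 11.0% of all tested genes. Flt3 (log2 change 0.67) and Ptprc (-0.09) did not pass, and for Flt3 all Ebf1 arrays lay above all control arrays.

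Within the network, Mycn fell in Ebf1 cells, the repressor genes Mxd1 and Mxd4 rose, and Myc, Mycl1, Max, Mxi1, Mxd3 and Mnt did not pass the test. Mycn was 3.21-fold lower and Mxd1 2.86-fold higher by their brighter probes, and Mxd4 was 2.05-fold higher. Of the 15 network probes that were tested, 4 rose and 2 fell, where 11.5% of the 20454 tested probes of the array rose and 10.2% fell (limma, Benjamini-Hochberg adjusted p under 0.05). Of all called probes 53% were higher, and 32.2% with each array scaled on its median. Counted by gene, each by its brightest tested probe, 2 of 9 rose and 1 of 9 fell, against a background of 12.6% and 11.0% of 13836 genes. The 15 probes had a median log2 change of -0.15, beside -0.06 over all tested probes. On 6 of the 15 probes all Ebf1 arrays lay above all control arrays and on 4 probes below them, which compares with 18.8% and 23.7% of all tested probes.

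**Figure D1:**
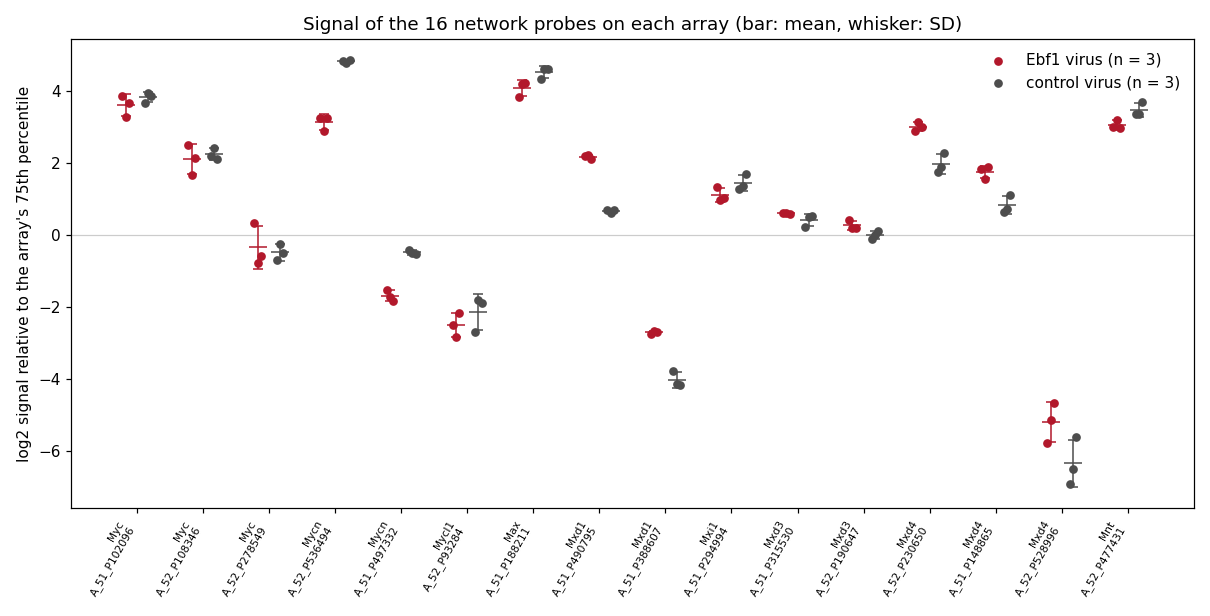
Each point is the log2 signal of a network probe on 1 array, relative to that array's 75th percentile, with Ebf1 virus left of control virus. Horizontal bars are means and whiskers SD (n = 3 arrays each), and heights of different probes cannot be set against each other. Both Mycn probes lie lower on all 3 Ebf1 arrays, and both Mxd1 probes and the 2 tested Mxd4 probes lie higher.

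Mycn encodes N-Myc, the activator of the family that is most abundant in embryonic and progenitor tissues. Its brighter probe A_52_P536494 read 9.57, 7.37 and 9.58 times the 75th percentile on the Ebf1 arrays, against 28.2, 27.5 and 28.9 times on the control arrays. All 3 Ebf1 arrays were low and the groups did not overlap. The mean log2 signal was 3.13 ± 0.22 in Ebf1 cells and 4.82 ± 0.03 in control cells (SD, n = 3 each). The log2 change was -1.68 ± 0.16 (SE), with a limma adjusted p of 0.000254.

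The dimmer Mycn probe, A_51_P497332, read 0.349, 0.306 and 0.284 times the 75th percentile on the Ebf1 arrays, and 0.754, 0.713 and 0.691 times on the control arrays. Again the Ebf1 arrays lay below every control array, and the 2 Mycn probes differed in the size of the change but not in its direction. The log2 change was -1.20 ± 0.14 (SE, limma adjusted p = 0.000928), a signal 2.30-fold lower in Ebf1 cells. With the slide as a fixed block it was -1.03 and no longer passed (limma adjusted p = 0.0557).

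Myc, the family member with the widest expression in dividing cells, was read by 3 probes and none of them was called. The probe on 10 spots, A_51_P102096, read 14.5, 9.65 and 12.8 times the 75th percentile on the Ebf1 arrays and 12.8, 15.5 and 14.4 times on the control arrays. The values of the groups overlapped, with replicate 2 the lowest of the Ebf1 arrays. Its log2 change was -0.22 ± 0.19 (SE), with a 95% interval of -0.66 to 0.21 and a limma adjusted p of 0.430.

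The 10 spots of this probe differed on each array by an SD of 0.046 to 0.090 on the log2 scale. Probe A_52_P108346 of Myc (chr15:61821417-61821476, mm9) read 5.65, 3.18 and 4.38 times the 75th percentile in Ebf1 cells, against 4.58, 5.39 and 4.33 times in control cells. Its log2 change was -0.15 ± 0.23 (SE, 95% interval -0.67 to 0.38). Probe A_52_P278549 of Myc read 1.26, 0.589 and 0.663 times the 75th percentile in Ebf1 cells and 0.616, 0.847 and 0.705 times in control cells, a log2 change of 0.14 ± 0.29 (SE, 95% interval -0.54 to 0.82). On all 3 Myc probes replicate 1 was the highest Ebf1 array and replicate 2 the lowest, and the groups overlapped. The intervals leave room for a change of either sign, so the Myc probes do not show equal levels in the groups.

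Mycn and Myc were then compared within each array, as the log2 signal of the brighter Mycn probe minus that of the Myc probe on 10 spots. This difference was -0.60, -0.39 and -0.42 on the Ebf1 arrays, against 1.14, 0.83 and 1.00 on the control arrays. The probes differ in brightness for reasons other than RNA, so only the gap between the groups can be read and not the sign of each value. The difference averaged -0.47 ± 0.11 in Ebf1 cells and 0.99 ± 0.16 in control cells (SD, n = 3 each), a gap of -1.46. The groups did not overlap, and the exact two-sided permutation p was 0.1, the smallest that the 20 splits of 3 against 3 arrays allow. Scaling between arrays cancels in this difference.

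Mycl1, now named Mycl, encodes L-Myc. Its single probe (A_52_P93284, chr4:122679548-122679607, mm9) read 0.177, 0.141 and 0.224 times the 75th percentile on the Ebf1 arrays, against 0.154, 0.287 and 0.270 times on the control arrays. The groups overlapped, and the log2 change of -0.37 ± 0.28 (SE, 95% interval -1.02 to 0.28) did not pass the test, with a limma adjusted p of 0.381.

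Max encodes the common partner of the other members, although Mxd1, Mxd4 and Mnt proteins can also pair with Mlx. Its probe A_51_P188211 (chr12:78038283-78038342, mm9) read 14.3, 18.2 and 18.6 times the 75th percentile on the Ebf1 arrays and 20.1, 24.5 and 24.3 times on the control arrays. All Ebf1 arrays lay below all control arrays, yet the log2 change of -0.43 ± 0.17 (SE, 95% interval -0.83 to -0.04) did not pass after adjustment over the array (limma adjusted p = 0.107).

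**Figure D2:**
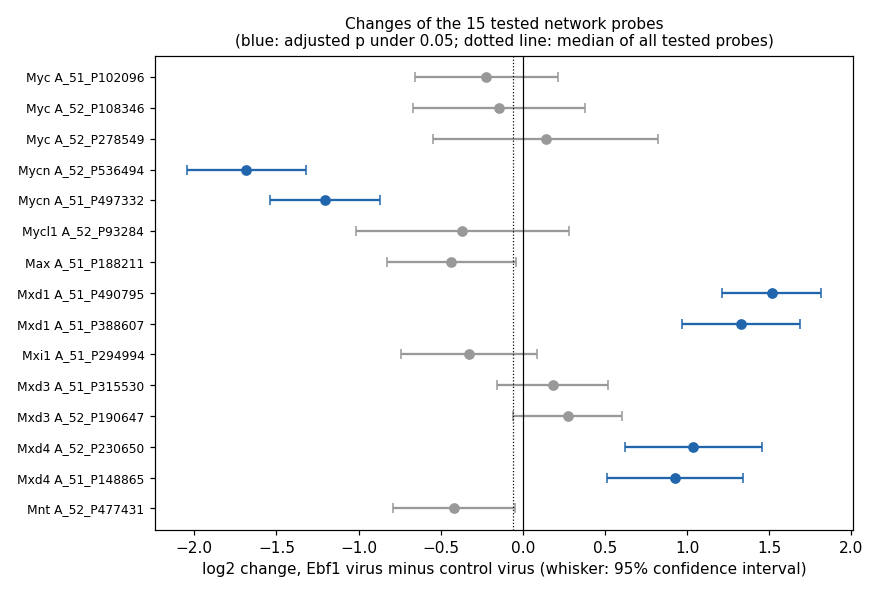
Points are the log2 change of each tested network probe, Ebf1 virus minus control virus, and whiskers its 95% confidence interval. Blue marks the 6 probes with a limma adjusted p under 0.05, and the dotted line is the median of all tested probes at -0.06. The 2 Mycn probes lie at -1.68 and -1.20, the Mxd1 and Mxd4 probes between 0.93 and 1.51, and the 3 Myc probes on both sides of 0.

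Among the repressors, Mxd1 encodes Mad1, the founding member of the Mxd family. Its brighter probe A_51_P490795 read 4.61, 4.63 and 4.33 times the 75th percentile on the Ebf1 arrays, against 1.62, 1.52 and 1.62 times on the control arrays. All 3 Ebf1 arrays were high, and the spread within each group was small beside the gap. The mean log2 signal was 2.18 ± 0.05 in Ebf1 cells and 0.66 ± 0.05 in control cells (SD, n = 3 each), and the log2 change was 1.51 ± 0.13 (SE), with a limma adjusted p of 0.000168.

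The second Mxd1 probe, A_51_P388607, was far dimmer. It read 0.151, 0.157 and 0.157 times the 75th percentile on the Ebf1 arrays and 0.0730, 0.0573 and 0.0559 times on the control arrays. The groups did not overlap, and the log2 change was 1.33 ± 0.15 (SE, limma adjusted p = 0.000842). With normexp background correction, which adds an offset of 50 to every signal, the change of this dim probe was 0.46 and did not pass (limma adjusted p = 0.0563). That of the brighter probe stayed past the threshold.

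Mxd4 encodes Mad4, another Max-binding repressor. Its probe A_52_P230650 read 7.34, 8.78 and 8.05 times the 75th percentile on the Ebf1 arrays, against 3.37, 3.67 and 4.84 times on the control arrays. Every Ebf1 array was above every control array, and control replicate 3 was the nearest to them. The log2 change was 1.04 ± 0.18 (SE, limma adjusted p = 0.00563).

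Probe A_51_P148865 of Mxd4 read 3.54, 2.95 and 3.70 times the 75th percentile in Ebf1 cells and 1.57, 1.65 and 2.16 times in control cells. The groups did not overlap, and the signal was 1.90-fold higher in Ebf1 cells (log2 change 0.93 ± 0.18 SE, limma adjusted p = 0.00940). Quantile normalisation kept both Mxd4 calls, at 1.11 and 0.97 (limma adjusted p of 0.00377 and 0.00699). With each array scaled on its median instead, the changes of the 2 probes were 0.73 and 0.62 and neither passed (limma adjusted p of 0.114 and 0.185). With no filter on dim probes the second of them had a limma adjusted p of 0.0638. Median scaling moved the median change of all tested probes to -0.37. It shifts every probe alike, so relative to that median the 2 probes stayed at 1.101 and 0.99 by construction, which does not bear on the lost calls.

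The remaining Mxd4 probe, A_52_P528996 (chr5:34523656-34523715, mm9), was not tested. It was well above background on 1 of 3 Ebf1 arrays and on 0 of 3 control arrays. Its log2 signal averaged -5.18 ± 0.55 in Ebf1 cells and -6.33 ± 0.66 in control cells (SD, n = 3 each).

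Mxd3, whose protein differs from the other Mxd repressors in being known for expression in cycling cells, was read by 2 probes that did not pass. Probe A_51_P315530 (chr13:55427253-55427426, mm9) read 1.54, 1.52 and 1.504 times the 75th percentile on the Ebf1 arrays, against 1.17, 1.43 and 1.44 times on the control arrays. Probe A_52_P190647 (chr13:55427000-55427059, mm9) read 1.32, 1.16 and 1.15 times in Ebf1 cells and 0.920, 1.00 and 1.07 times in control cells. On both probes the Ebf1 arrays lay just above the control arrays. The log2 changes of 0.18 ± 0.14 and 0.27 ± 0.14 (SE, limma adjusted p of 0.403 and 0.210) turned to -0.13 and -0.04 with median scaling. That scaling shifts every probe alike. Relative to the median of all tested probes the values were 0.24 and 0.34 under both scalings by construction, which does not bear on the signs.

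Mxi1 encodes Mxi1, also called Mad2, and was read by probe A_51_P294994 (chr19:53446996-53447055, mm9). It read 2.54, 1.97 and 2.03 times the 75th percentile on the Ebf1 arrays and 2.42, 2.57 and 3.23 times on the control arrays. The groups overlapped through Ebf1 replicate 1, and the log2 change was -0.33 ± 0.18 (SE, 95% interval -0.74 to 0.09, limma adjusted p = 0.224).

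Mnt encodes the most widely expressed Max-binding repressor. Its probe A_52_P477431 (chr11:74658915-74658974, mm9) read 8.02, 9.20 and 7.80 times the 75th percentile on the Ebf1 arrays, against 10.3, 10.3 and 13.0 times on the control arrays. All Ebf1 arrays were lower, without passing the test (log2 change -0.42 ± 0.16 SE, 95% interval -0.79 to -0.05, limma adjusted p = 0.10). Max and Mnt thus had separate groups without a call. Of all tested probes 42.6% had groups that did not overlap, called or not, and 21.7% were called.

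The arrays lay on 3 slides, and the header of each file names its slide. Control replicates 1 and 3 shared the first slide, Ebf1 replicate 1 and control replicate 2 the second, and Ebf1 replicates 2 and 3 the third, so only the second holds both groups. On it Ebf1 replicate 1 minus control replicate 2 was -1.52 and -1.03 for the Mycn probes and 1.60 and 1.40 for the Mxd1 probes. For the Mxd4 probes it was 1.001 and 1.098, for Max -0.78 and for Mnt -0.36. Each has the sign of the reported change, though it rests on 1 array a group. With slide as a fixed block these same differences are the estimates, and their spread comes from the pairs of 1 group on the other slides. They passed for both Mxd1 probes and the brighter Mycn probe, and did not pass for the dimmer Mycn probe or the Mxd4 probes.

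**Figure D3:**
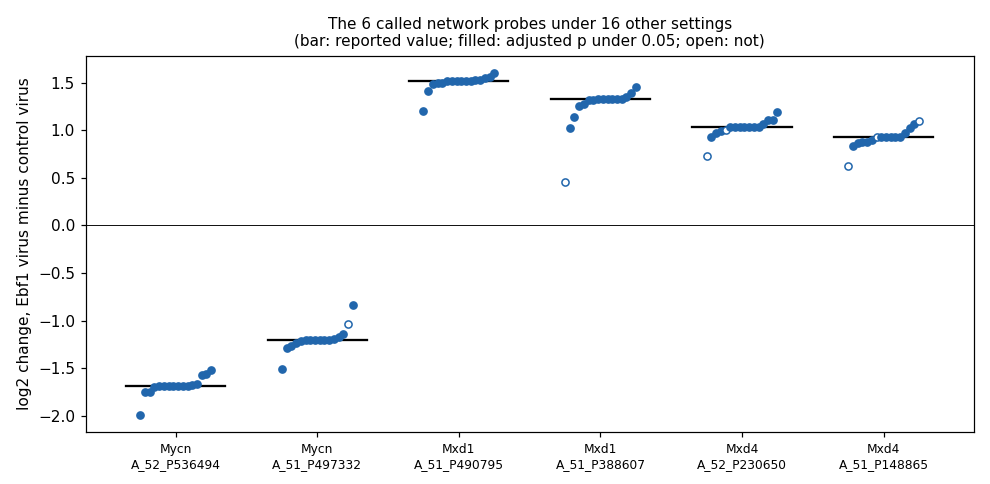
For each of the 6 called network probes, points are the log2 change, Ebf1 virus minus control virus, under 16 other ways of processing the arrays or choosing samples, and the bar is the reported value. Filled points have a limma adjusted p under 0.05. The brighter Mycn probe runs from -1.99 to -1.52 and the brighter Mxd1 probe from 1.21 to 1.60, and both pass under all 16.

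Promoter sequences of the genes that changed are shown because the compared cells differ in a transcription factor. The table of RefSeq starts used here (GRCm38.p6) held 8 of the 9 members, all but Myc, with 10 starts in all, and the 250 bases before each start were searched on both strands. The motifs, each of which reads the same on both strands, were CCCNNGGG, the full Ebf1 palindrome, which is CCCNNGGG with a T before it and an A after it, and the E-box CACGTG bound by Myc and Max dimers. The full palindrome was in 0 of the 10 windows, beside 0.779% of the 32851 windows in the table. CCCNNGGG was in 3 windows, of Mycn, Mxd3 and 1 of the Mxi1 starts, beside 11.8% of all windows. CACGTG was in 2 windows, of Mxd4 and Mnt, beside 6.02%. Capitals below mark CCCNNGGG in Mycn, 59 bases before the start, and CACGTG in Mxd4, 219 bases before it, and the Mxd1 window held none of the motifs and was 78.4% G or C. A match is a description of letters and does not show that a protein binds there.
Mycn (chr12:12941837-12942086, minus strand, GRCm38.p6): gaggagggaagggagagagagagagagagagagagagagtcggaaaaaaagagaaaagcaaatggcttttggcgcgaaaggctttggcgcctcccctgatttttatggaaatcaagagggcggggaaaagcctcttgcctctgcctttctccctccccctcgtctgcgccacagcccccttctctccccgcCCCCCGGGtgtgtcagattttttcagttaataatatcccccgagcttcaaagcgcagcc
Mxd1 (chr6:86669160-86669409, minus strand, GRCm38.p6): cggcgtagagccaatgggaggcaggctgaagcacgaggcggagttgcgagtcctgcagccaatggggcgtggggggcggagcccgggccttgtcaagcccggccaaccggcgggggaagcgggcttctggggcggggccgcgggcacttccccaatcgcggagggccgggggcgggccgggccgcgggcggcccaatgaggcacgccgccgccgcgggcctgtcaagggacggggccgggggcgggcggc
Mxd4 (chr5:34187711-34187960, minus strand, GRCm38.p6): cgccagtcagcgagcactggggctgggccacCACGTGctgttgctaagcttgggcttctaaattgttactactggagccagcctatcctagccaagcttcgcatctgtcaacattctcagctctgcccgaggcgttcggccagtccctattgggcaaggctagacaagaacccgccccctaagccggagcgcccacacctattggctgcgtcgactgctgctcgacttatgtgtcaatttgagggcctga

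Genes that work with the network or are known to be regulated by it were described by 7 lists. Of 33 genes on the array that Myc is known to activate, all tested, 17 fell and 0 rose, beside 11.0% lower and 12.6% higher over all tested genes. The median of their log2 changes was -0.59, beside -0.06 over all genes. The change was below 0 for 32 of the 33, and for 27 all Ebf1 arrays lay below all control arrays, beside 25.2% of all genes. Of the 14 proliferation genes 1 fell and 0 rose, with a median of -0.31. Their change was below 0 for 12 of the 14, and for 5 all Ebf1 arrays lay below all control arrays. The difference between the lists was not tested.

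Odc1, the rate-limiting enzyme of polyamine synthesis, had log2 signals of 5.89, 5.97 and 6.003 on the Ebf1 arrays, against 7.04, 7.11 and 7.08 on the control arrays. The groups were far apart for their spread, and the log2 change was -1.13 ± 0.13 (SE, limma adjusted p = 0.000757). Nme1, a nucleoside diphosphate kinase, fell by 0.94 ± 0.13 (SE, limma adjusted p = 0.00240) and Apex1, a DNA repair endonuclease, fell by 0.87 ± 0.13 (SE, limma adjusted p = 0.00343) on the log2 scale. For both genes the 3 Ebf1 arrays lay below the 3 control arrays, and within the slide that holds both groups the differences were -1.09 for Nme1 and -0.996 for Apex1.

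How many of the Myc-activated genes passed depended on single arrays and on the settings, as did the number of probes called over the whole array. The count of 17 lower was 4 without control replicate 2, 10 without control replicate 3 and 11 without control replicate 1 or without Ebf1 replicate 2. It was 9 with the replicate number as a block, 6 with slide as a fixed block, 4 with no filter on dim probes, and 0 genes of the list rose in any of these. Over the whole array 2085 probes were called lower as reported. That number was 1016 without control replicate 2, 1062 without control replicate 3 and 1572 without control replicate 1. It was 1272 without Ebf1 replicate 2, 1233 with the replicate block, 898 with the slide block and 655 with no filter on dim probes. The list holds no network member, and its genes are also read in dividing cells in general, so values of the proliferation list stand beside it. The summed signal of the 14 proliferation genes was 596.1 to 650.2 times the 75th percentile in Ebf1 cells and 697.2 to 812.6 times in control cells. The brightest genes, such as Mcm6 (log2 change -0.32), weigh most in this sum. By gene the change was below 0 for 12 of the 14, with Mki67 at -0.04, and Ccna2 (0.12) and Ccnb1 (0.18) were above 0. Ccne1, which encodes cyclin E1, was the only gene of the list to pass, and it fell by 1.13 ± 0.16 on the log2 scale (SE, limma adjusted p = 0.00196). The part of proliferation in the fall of the Myc-activated genes was not tested.

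**Figure D4:**
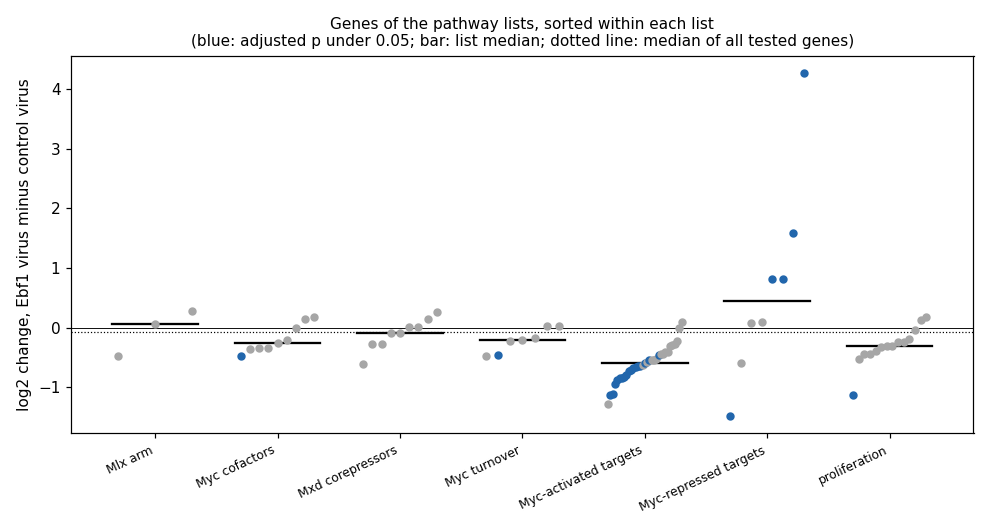
Each point is a tested gene of a list, placed by its log2 change, Ebf1 virus minus control virus, and sorted within the list, with blue for a limma adjusted p under 0.05. Black bars are list medians and the dotted line is the median of all tested genes at -0.06. The 33 Myc-activated targets have a median of -0.59, with 17 lower and 0 higher. Of the 8 Myc-repressed targets 4 are higher and 1 is lower, and Ndrg2, among the 4, entered the test through the Ebf1 arrays. Over all tested genes 11.0% were lower and 12.6% higher.

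Of 8 genes that Myc is known to repress, 4 rose and 1 fell, beside 12.6% and 11.0% of all tested genes, with a median log2 change of 0.45. Ndrg2, a member of the family of N-Myc downstream regulated genes, had log2 signals of -0.53, -0.25 and -0.43 on the Ebf1 arrays, against -4.87, -4.97 and -4.19 on the control arrays. Only 1 of 3 control arrays was well above background for it, so it entered the test through the Ebf1 arrays, where it is high, and its size is uncertain. Without such genes, with signal above background required on all 6 arrays, 3 of the list rose. Its log2 change of 4.27 ± 0.22 (SE, limma adjusted p = 1.52e-05) was 1.99 with normexp correction. Ndrg1, of the same family, read 3.96, 3.92 and 3.97 in Ebf1 cells and 2.38, 1.88 and 2.82 in control cells on the log2 scale, with no overlap, which gives a change of 1.59 ± 0.23 on that scale (SE, limma adjusted p = 0.00271). Fth1, the ferritin heavy chain, rose by 0.82 ± 0.13 (SE, limma adjusted p = 0.00435).

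Both other genes called in this list lie outside the rule for naming genes and are named after their values were seen. Cdkn1a, which encodes the cell cycle inhibitor p21, rose by 0.81 ± 0.18 (SE, limma adjusted p = 0.0175). It no longer passed when control replicate 1, control replicate 2, Ebf1 replicate 2 or Ebf1 replicate 3 was left out. Cebpa, a factor of myeloid cells, changed by -1.48 ± 0.41 on the log2 scale (SE, limma adjusted p = 0.0388), and its call was lost without any one of the control arrays and without Ebf1 replicate 3. With median scaling 2 of the 8 genes rose, since Fth1 (0.52) and Cdkn1a (0.51) no longer passed. Of 5 tested myeloid markers, out of 8 listed, 2 rose and 2 fell, beside 12.6% and 11.0% of all tested genes. Itgam and Elane were not tested, and Ly6g was not on the array. Mpo (log2 change -1.77) and Fcgr1 (-2.29) fell, and Csf1r (1.69) and Prtn3 (1.43) rose. Csf1r and Prtn3 were each well above background on 2 of 3 control arrays, so they entered the test through the Ebf1 arrays. The summed signal of the 5, most of which is Mpo, was 1.382 to 1.969 times the 75th percentile in Ebf1 cells, against 4.024 to 5.461 times in control cells. The part of myeloid cells in the Cebpa value was not tested.

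Among partners of the network, the shares called were near or below those over all genes, 11.0% lower and 12.6% higher. Of 9 Myc cofactors 1 fell and 0 rose, and this was Ruvbl1, an ATPase of chromatin remodelling complexes (log2 change -0.47 ± 0.13 SE, limma adjusted p = 0.0406), on 1 of its 2 tested probes. The change was below 0 for 7 of the 9 cofactors, with a median of -0.26, beside -0.06 over all genes. For 5 of the 9 all Ebf1 arrays lay below all control arrays, beside 25.2% of all genes. Of 7 genes that control Myc turnover 1 fell and 0 rose, and this was Skp2, an F-box protein of a ubiquitin ligase (log2 change -0.46 ± 0.13 SE, limma adjusted p = 0.0440), also on 1 of its 2 tested probes. Both calls were lost when any array except Ebf1 replicate 1 was left out.

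Of the 9 corepressor genes of the Mxd proteins 0 passed by their brightest probe (Sin3b had 1 of 2 tested probes called, the dimmer one), and the smallest p belonged to Rbbp4, a histone-binding subunit of Sin3 complexes, which stood at -0.61 ± 0.29 on the log2 scale (SE, limma adjusted p = 0.170). Its groups overlapped through control replicate 1, at a log2 signal of 5.396, without which it passed (log2 change -0.96, limma adjusted p = 0.0108). Of the 4 genes of the parallel network around Mlx, a relative of Max, Mlxipl was not tested and 0 of the other 3 passed. Mlx itself stood at -0.48 ± 0.16 on the log2 scale (SE), and its limma adjusted p was 0.0732.

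Cells of other kinds in the sorted samples were read by marker lists beside these results. Over all tested genes 12.6% rose and 11.0% fell. Of 8 tested markers of stromal feeder cells, out of 10 listed, 3 rose and 0 fell (Vcam1 and Pdgfra were not tested). The change was above 0 for all 8, with a median of 0.64. For 7 of these markers all Ebf1 arrays lay above all control arrays, beside 18.8% of all tested probes. Their summed signal was 15.77 to 20.79 times the 75th percentile in Ebf1 cells and 10.1 to 14.43 times in control cells. Of 6 tested markers of T, natural killer and innate lymphoid cells, out of 9 listed, 1 rose and 4 fell. Ncr1 and Eomes were not tested, and Zbtb16 was not on the array. Tcf7 rose (log2 change 1.61), and Il2rb, Gata3, Cd3g and Cd3d fell. The summed signal of the 6, most of which is Il2rb, was 5.206 to 5.621 times in Ebf1 cells, against 18.38 to 19.89 times in control cells. The part of such cells in the network results was not tested. In bulk samples, fewer cells of a type and less RNA per cell cannot be told apart.

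The genes whose pattern over the 6 arrays was most like that of a network member were found among 10548 genes with a real symbol that were well above background on all arrays. Likeness was the root mean square difference of log2 values, each gene centred on its own mean, so that 0 means the same pattern. For Mycn they were Cobll1 (0.089), Cxcr5 (0.091), a chemokine receptor of B cells, and Sox6 (0.093), a transcription factor, whose log2 changes of -1.58, -1.60 and -1.62 lie close to that of Mycn. For Mxd1 they were Trim3 (0.082), Myo1c (0.084), an unconventional myosin, and Srl (0.085). Those named for Mxd4 are Pold4 (0.057), a subunit of DNA polymerase delta, and Ttc38 (0.074). For Myc they were Zfp830 (0.043), Polr2b (0.057), a subunit of RNA polymerase II, and Rpe (0.059), none of which passed the test.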

How the data were processed

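Cy3-labelled RNA of 6 samples was hybridised to Agilent 1-colour arrays. Per the file headers, the spot intensity values are those of Agilent Feature Extraction 10.5.1.1, with background subtracted within each array, and per the submitters' processing notes with the same software. A table of intensity values deposited by the authors equalled the processed signal within 0.1% at all 45018 features, with medians of 12.7, 12.29 and 19.73 for Ebf1 replicates 1 to 3 and 13.14, 7.623 and 9.065 for control replicates 1 to 3. It is linear and uncentred. Positions are mm9, per the file headers. Whether a probe lies in an exon or a UTR of that build was not looked up here.

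Groups and replicate numbers came from the sample titles. The log2 processed signal minus that of the 75th percentile of non-control features was used. Between 65 and 116 outlier spots per array were left out, 0 non-control spots were saturated, and spots of a probe were averaged. The number of arrays limits the precision. The 20454 probes tested were those that the software's flag puts well above background on every array of one group or of both. The tests were two-sided, from limma 3.58.1 (lmFit, eBayes) in R 4.3.3, with Benjamini-Hochberg adjustment over all tested probes and a threshold of 0.05. Changes are Ebf1 virus minus control virus. A gene was represented by its brightest tested probe. Symbols were updated by RefSeq accession with a GRCm38.p6 table, in which those of 25097 probes matched.

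The members, the lists and the tests were chosen with earlier results of these data known. The text names all members, up to 3 called genes of each pathway list with the smallest p (or 1 gene where none was called) and the 3 genes most like each of Myc, Mycn and the called members. Some results that this rule covers are not reported here. The alternatives were normexp correction, quantile normalisation, median scaling, 2 other filters, the replicate number and the slide as blocks, eBayes with trend and robust options, use of the deposited table, and the removal of each array in turn. The fit was tested on simulated data. Figures were drawn with matplotlib 3.10.9.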

Additional observations from a re-analysis of the deposited data

How the results depend on the processing

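The brighter probes of Mycn (-1.99 to -1.52) and Mxd1 (1.21 to 1.60) passed the limma test under all 16 alternatives, of which the deposited table repeats the reported values. The 6 called probes lost their call in 7 pairs of a probe and an alternative, and no called probe changed sign. Network probes higher numbered 2 with median scaling and 2 with slide as a fixed block, and network probes lower numbered 1 with slide as a fixed block. Leaving out single arrays changed no network call. Genes of the pathway lists that were higher, 4 as reported, numbered 2 with median scaling and 2 with slide as a fixed block. Genes that were lower, 21 as reported, numbered 5 with no filter on dim probes, 11 with the replicate block, 8 with slide as a fixed block and 5 to 16 when single arrays were left out. Probes called lower over the whole array, 2085 as reported, were fewer in the same settings. They numbered 655 with no filter on dim probes, 1233 with the replicate block and 898 with slide as a fixed block. When single arrays were left out they numbered 1016 to 1687. The gap between Mycn and Myc ran from -1.54 to -1.38 over its alternatives.

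The changes of sign were all of probes that never passed. With median scaling Mxd3 was at -0.127 and -0.0351 and Myc A_52_P278549 at -0.17. This scaling shifts all probes alike. Relative to the median of all probes they stayed at 0.24, 0.34 and 0.20 by construction, which does not bear on the signs. Myc A_52_P108346 was at 0.0680 with slide as a fixed block. Leaving out single arrays, Myc A_52_P278549 ran from -0.20 to 0.35 and Myc A_52_P108346 from -0.34 to 0.0689. Median scaling also turned the split of calls over the array, with 32.2% of called probes higher, against 53% as reported. The cause was not tested.

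Same-numbered samples did not deviate together (r = -0.17, -0.25 and 0.10), and only replicate 3 correlated best with its own number, so the numbers were not taken as pairs. The highest correlation between the groups was 0.29, of Ebf1 replicate 1 with control replicate 2, which shared a slide. Over all slides the consensus correlation of arrays on a slide was 0.0106. With the replicate block the network still had 4 probes higher and 2 lower and over the array 1863 probes were higher and 1233 lower, against 2350 and 2085 without it.

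The array's dim end limits the reading of the Mxd4 probe that was not tested, the dimmer Mxd1 probe and Mycl1.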
